A study of Sus scrofa with 12 samples.

Results

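Back subcutaneous fat of sows with high backfat thickness (HBF) was compared with that of sows with low backfat thickness (LBF) by RNA-Seq. The libraries were chosen by their tissue and group labels, which gave 6 of the 12 libraries of the series, 3 in HBF and 3 in LBF, which the labels number as replicates and the study's methods describe as individual sows. All were unmated sows of the Dingyuan pig, a native Chinese breed that lays down much fat, kept under the same feeding and sampled at 300 days of age, and no agent, allele or transgene was applied to either group. The sows were taken from the extremes of backfat thickness in a larger herd at a similar body weight, so the groups differ in a trait and were not assigned to a treatment. Of 31903 gene identifiers listed for the series, 16239 had a mean above 0.05 FPKM in these 6 libraries and were tested, and 12777 of those, or 78.7%, carried a gene name.

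Subcutaneous white fat stores triglyceride in adipocytes, which take up fatty acids from circulating lipoproteins and, in the pig, also make most of their fatty acids on site from glucose, acetate and the carbon skeletons of amino acids. Branched-chain amino acids are broken down in the adipocyte mitochondrion to acetyl-CoA and propionyl-CoA, and both can be used for fatty acid synthesis or burned in the citric acid cycle. Around the adipocytes lie capillaries, fibroblasts with their collagen, and macrophages, which clear dying cells and lipid, so bulk RNA of the depot mixes all of these.

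FPKM, fragments scaled to transcript length and to the mapped fragments of the library, is a level per transcript length and can be compared between genes. Differences were tested with limma on log2(FPKM + 0.1), and every difference below is HBF minus LBF on that scale, which compresses differences between low values. The libraries carried the markers of fat. FABP4, the fatty acid binding protein of adipocytes, was at 3225, 4742 and 4925 FPKM in LBF and 5378, 6425 and 4546 in HBF, against a mean of 40.7 in the LD muscle libraries of the series. ADIPOQ, which encodes adiponectin, was at 2391, 2049 and 2834 FPKM in LBF and 1667, 4071 and 1498 in HBF. The summed FPKM of 12 adipocyte genes was 8254 to 10326 in LBF and 8235 to 12839 in HBF and overlapped. FABP4 and ADIPOQ made up most of this sum, and LPL of the same list was lower in each HBF library.

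Markers of other cell types varied between the libraries and are given here because later results touch them. The genes that were at least 32 times higher in muscle than in fat summed to 491 and 516 FPKM in LBF replicates 1 and 2, to 1318 in LBF replicate 3, and to 554 to 599 in HBF. LBF replicate 3 thus stood apart, with 0.313% of its total FPKM in these genes against 0.0955% to 0.125% in the other 5 libraries. These shares include the level of the genes in fat itself and are not shares of muscle RNA. The summed FPKM of 24 macrophage genes was 913, 1570 and 2126 in LBF against 2875, 3302 and 2610 in HBF. Endothelial genes summed to 403, 602 and 290 FPKM in LBF and 837, 630 and 538 in HBF, and collagen and fibroblast genes to 13221, 5517 and 10491 in LBF against 6080, 4094 and 7385 in HBF. In bulk tissue, fewer cells of a type and less RNA per cell cannot be told apart. The part of these shifts in the results below was not tested.

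**Figure D1:**
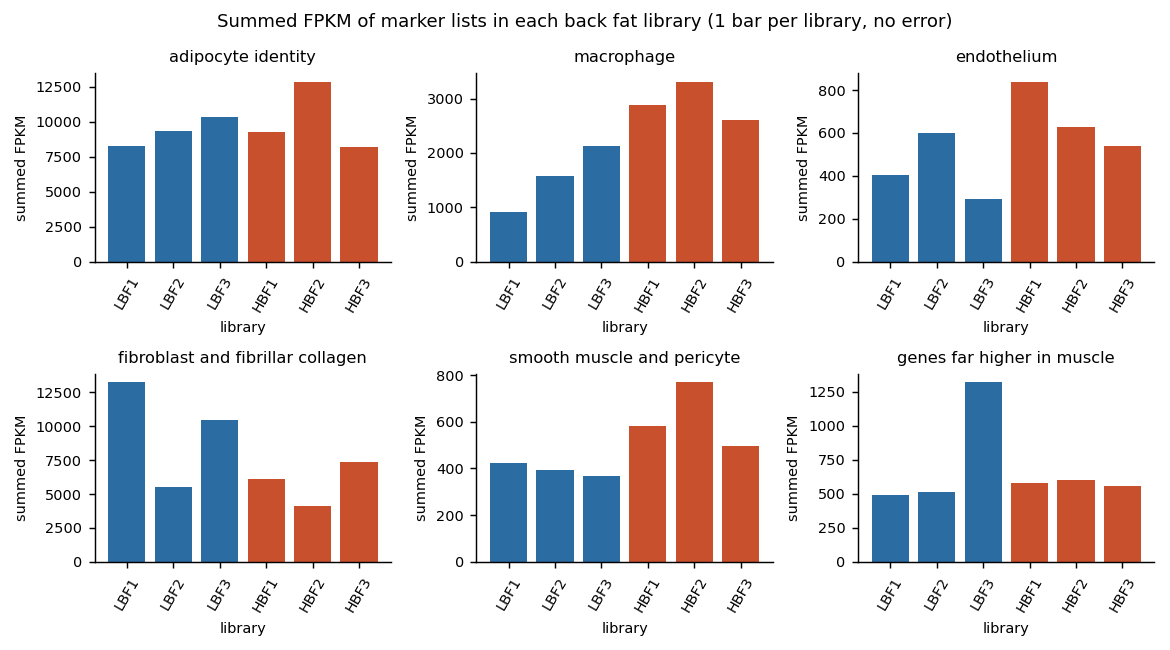
Summed FPKM (vertical axis) of 5 marker lists and of the genes far higher in muscle in each of the 6 back fat libraries (horizontal axis), 1 bar per library with LBF in blue and HBF in orange. Adipocyte genes overlap between the groups, macrophage genes are lowest in LBF replicate 1 at 913 and from 2610 to 3302 in HBF, and the muscle signal is highest in LBF replicate 3 at 1318.

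The question of the comparison is which genes differ between thick and thin backfat. No gene had an adjusted p under 0.01 together with a log2 difference of at least 1 in limma, 0% of the 16239 tested, with 0.128 as the lowest adjusted p. An unadjusted p under 0.05 in limma was reached by 13.6% of the genes, 9.36% higher in HBF and 4.22% lower. The HBF libraries all lay above the LBF libraries for 13.9% of the genes and all below for 6.45%, or 20.4% in either direction. Among the genes at that p, 1520 were higher and 686 lower, but median-of-ratios scaling between libraries gave 974 higher and 1012 lower and quantile normalization 951 and 1064, so the excess of higher genes was not seen after either scaling. Without HBF replicate 1 they were 898 and 535. The number past the limits was 2 without LBF replicate 1 and 1 without LBF replicate 2, LBF replicate 3 or HBF replicate 2. The median difference of all genes was 0.09. Because no single gene passed the limits, the groups of genes below are described by the number of members at an unadjusted p under 0.05 or with groups that did not overlap, to be read against these percentages.

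The 10 named genes with the smallest p were all lower in HBF. Lowest of all in p was FAH, on chromosome 7 from 49047833 to 49087790 of Sscrofa11.1, which encodes fumarylacetoacetase, the last enzyme of tyrosine breakdown. It was at 80.8, 78.9 and 82.8 FPKM in LBF and 33.7, 37.3 and 33.8 in HBF, a difference of -1.21 (standard error 0.11, adjusted p = 0.128 from limma). The gap between the groups was many times the spread within them. AACS, the cytosolic acetoacetyl-CoA synthetase that channels ketone bodies into lipid, GCDH of lysine breakdown, PSAT1 of serine synthesis and ALDH1L1, a folate dehydrogenase, were among the 10 and return below with their pathways. PXMP2, a channel of the peroxisomal membrane on chromosome 14 from 22784212 to 22798019, had 13.0, 14.4 and 15.0 FPKM in LBF and 6.33, 7.21 and 7.11 in HBF, a difference of -1.03. PPP1R1A, an inhibitor of protein phosphatase that is regulated by cyclic AMP, was at 20.1, 20.0 and 15.9 FPKM in LBF and 6.45, 4.54 and 6.14 in HBF. The other 3 were developmental genes. The glypican GPC5 went from 2.49 ± 0.307 FPKM (SD, n = 3) in LBF to 0.503 ± 0.0819 (SD, n = 3) in HBF, and GLI3, a transcription factor of hedgehog signalling, from 6.68 ± 1.65 (SD, n = 3) to 1.75 ± 0.287 (SD, n = 3). PITX3, a homeobox factor, was at 0.672, 0.803 and 0.722 FPKM in LBF, was listed at 0 in HBF replicate 1 and was at 0.065 and 0.0719 in the others. The means of PPP1R1A and PITX3 in the muscle libraries were 307 and 9.36 FPKM. The part of muscle RNA in their differences was not tested. Among the 100 named genes with the smallest p the directions were nearly even, 52 higher and 48 lower in HBF.

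**Figure D2:**
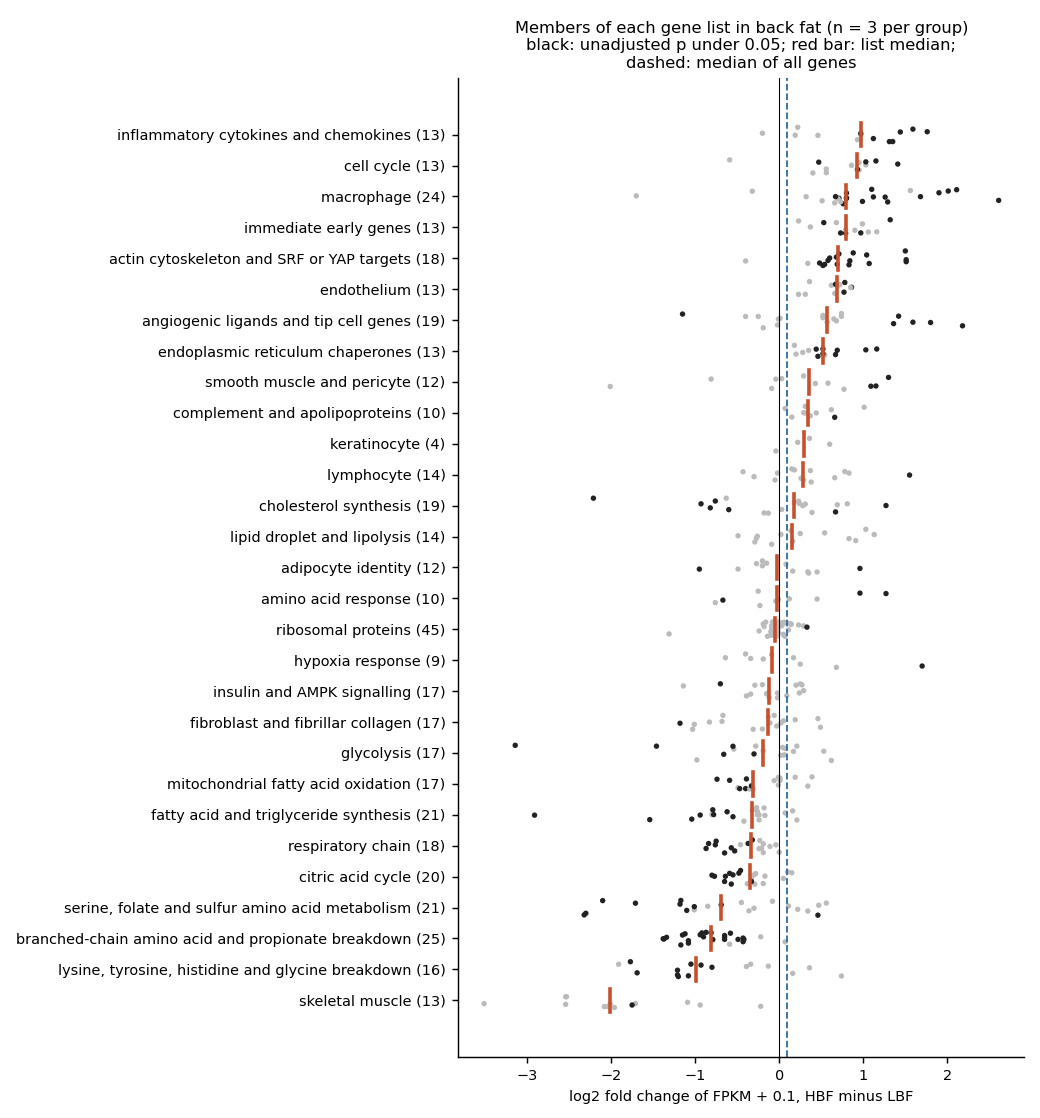
Log2 difference HBF minus LBF (horizontal axis) of each tested member (point) of the gene lists named on the vertical axis, with the number of tested members in parentheses, black where the unadjusted p from limma was under 0.05. The list medians (red bars) run from -2.01 for skeletal muscle, which is -0.04 without LBF replicate 3, and -0.99 for lysine, tyrosine, histidine and glycine breakdown to 0.97 for cytokines and chemokines, against 0.09 for all genes (dashed line).

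Genes for the breakdown of branched-chain amino acids and propionate were lower in HBF almost without exception. Of 25 measured members of a textbook list of these enzymes, 22 were lower at an unadjusted p under 0.05, which 4.22% of all genes were, 0 were higher, and for 23 the whole HBF range was below the LBF range. The median difference was -0.81 against 0.09 for all genes. The summed FPKM of the list was 1471, 1441 and 1274 in LBF against 704, 795 and 863 in HBF. Among the genes that the study lists as differing in this fat are 10 of these enzymes, and another 4 are among its differing proteins. All 14 were lower at an unadjusted p under 0.05 here. The count over the textbook list includes those of them that it holds. That list was also chosen with earlier results of these data known, so its count is a description. The 14 were chosen on these same libraries or sows and are not independent evidence. The same holds for every group below that is drawn from the study's differing genes or proteins, and the sorting of those genes into groups by function was made for this comparison and is not the study's. Of the 4 from the protein list, 2 were lower at that p without LBF replicate 3 or without HBF replicate 1. The count over the textbook list stayed between 19 and 22 when single libraries were left out was 24 under both scalings between libraries and was 16 with all 12 libraries in 1 fit.

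The step that opens the pathway had one of the smaller differences. BCAT2, the mitochondrial transaminase that removes the amino group, was at 55.5, 45.2 and 55.3 FPKM in LBF and 37.5, 37.95 and 40.1 in HBF, a difference of -0.43 (standard error 0.13). The next enzyme is the branched-chain ketoacid dehydrogenase complex, which commits the carbon skeletons to oxidation. Its E1 subunit gene BCKDHB, on chromosome 1 from 85755819 to 86017661, had 32.3, 14.8 and 22.4 FPKM in LBF and 8.49, 8.75 and 8.05 in HBF, a difference of -1.38 (standard error 0.27, adjusted p = 0.222 from limma). BCKDHA, its partner in E1, differed by -0.65 and DBT, the E2 core, by -0.94. DLD, the E3 subunit that is shared with other dehydrogenase complexes, differed by only -0.22 and its p was not under 0.05. BCKDK, the kinase that switches the complex off, was at 26.0, 21.9 and 26.1 FPKM in LBF and 30.4, 23.6 and 23.9 in HBF, with a 95% interval of the difference from -0.29 to 0.42, and PPM1K, the phosphatase that switches it on, differed by -0.65.

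In the leucine branch IVD, isovaleryl-CoA dehydrogenase on chromosome 1 from 130896488 to 130910582, had 55.5, 43.6 and 74.6 FPKM in LBF and 17.3, 20.5 and 28.9 in HBF, a difference of -1.37 (standard error 0.26). MCCC2, a subunit of the biotin-dependent methylcrotonyl-CoA carboxylase, was at 85.1, 95.9 and 67.3 FPKM in LBF and 31.3, 48.2 and 33.2 in HBF. Each HBF library was below each LBF library for both. MCCC1 and AUH of the same branch had differences of -0.58 and -0.65.

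The valine and isoleucine branch showed the same direction. ACADSB, which oxidizes the short branched acyl-CoA of isoleucine, had 54.7 ± 13.6 FPKM (SD, n = 3) in LBF and 25.4 ± 2.09 (SD, n = 3) in HBF. ECHS1, the enoyl-CoA hydratase shared with fatty acid oxidation, was at 207, 213 and 167 FPKM in LBF and 87.6, 66.4 and 135 in HBF. ALDH6A1, which yields propionyl-CoA from valine, was at 61.8, 58.6 and 41.9 FPKM in LBF and 15.9, 32.1 and 28.7 in HBF, and HSD17B10 of the isoleucine path differed by -0.87. HIBADH was the exception among these, at 138, 147 and 78.0 FPKM in LBF and 63.6, 90.7 and 80.9 in HBF, where LBF replicate 3 lay inside the HBF range. HIBCH of the valine path differed by -0.42. ACAT1, the thiolase that splits the last intermediate of isoleucine and of ketone bodies, was at 102, 134 and 107 FPKM in LBF and 52.3, 65.0 and 65.2 in HBF, a difference of -0.90.

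Propionyl-CoA from these branches is carboxylated and rearranged to succinyl-CoA. PCCA, a subunit of propionyl-CoA carboxylase, was at 26.9, 20.7 and 21.7 FPKM in LBF and 12.6, 11.2 and 12.4 in HBF, a difference of -0.92 (standard error 0.14, adjusted p = 0.168 from limma). PCCB, MCEE and MMUT, the remaining enzymes of that route, had differences of -0.49, -0.79 and -0.81. ECHDC1, which removes the stray carboxylation products of acetyl-CoA carboxylase and propionyl-CoA carboxylase, was at 86.7, 67.8 and 57.1 FPKM in LBF and 24.2, 30.5 and 28.0 in HBF. ACSS3, a mitochondrial enzyme that activates propionate, was at 12.2, 17.3 and 14.3 FPKM in LBF and 3.83, 7.84 and 8.51 in HBF. All these genes lay lower in every HBF library.

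**Figure D3:**
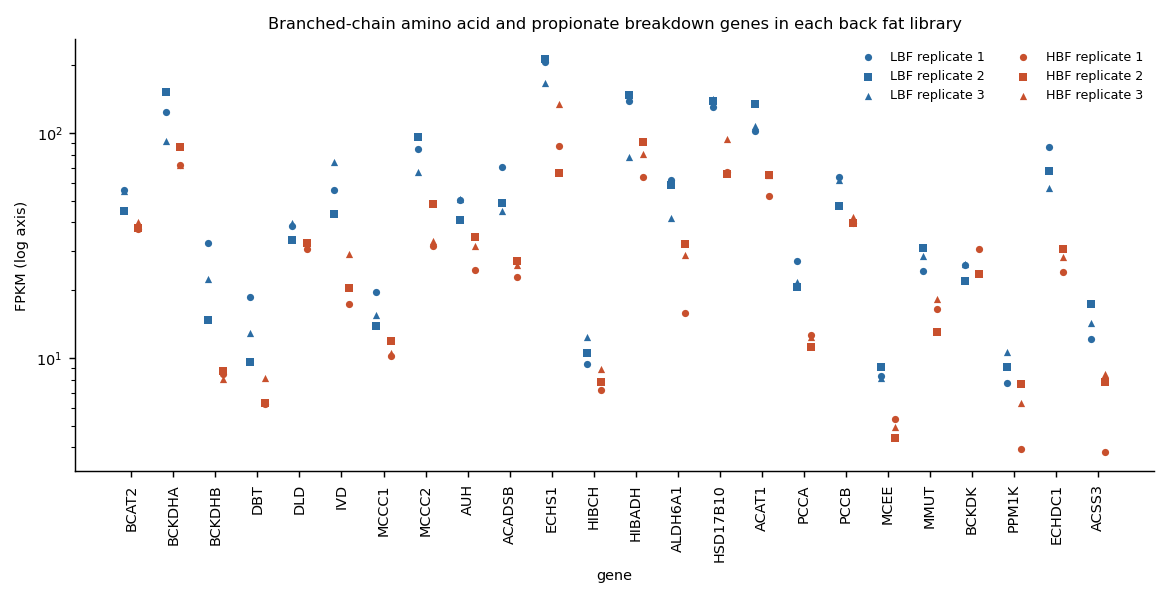
FPKM on a log axis of 24 genes of branched-chain amino acid and propionate breakdown, ordered along the pathway from transamination on the left, with 3 LBF libraries (blue) and 3 HBF libraries (orange) per gene and the replicate number shown by the marker shape. The orange points lie below the blue points for 22 genes, while BCKDK and HIBADH overlap.

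Of 16 measured genes of lysine, tyrosine, histidine and glycine breakdown, 9 were lower at an unadjusted p under 0.05 and 0 were higher, with a median of -0.99. AASS, which opens lysine breakdown, was at 3.15, 2.65 and 2.46 FPKM in LBF and 0.922, 1.02 and 1.53 in HBF, ALDH7A1 went from 73.6, 65.1 and 71.2 to 29.8, 40.7 and 40.4, and DHTKD1 from 5.50, 6.38 and 6.80 to 2.82, 2.59 and 3.25. GCDH, glutaryl-CoA dehydrogenase on chromosome 2 from 66131154 to 66138963, had 24.0, 21.9 and 21.9 FPKM in LBF and 10.5, 10.8 and 11.4 in HBF, a difference of -1.05 (standard error 0.12, adjusted p = 0.128 from limma). For tyrosine, the isomerase gene GSTZ1, one step before fumarylacetoacetase, differed by -0.80, while HPD, HGD and TAT at the start of that pathway were under 1.1 FPKM in every library, were listed at 0 in some and overlapped. SDS, which deaminates serine, was at 1.16, 1.34 and 1.15 FPKM in LBF and 0.353, 0.305 and 0.27 in HBF. GOT2, the mitochondrial aspartate aminotransferase, stood outside the list and was at 87.5, 78.8 and 71.1 FPKM in LBF and 42.3, 43.0 and 45.1 in HBF, and it was picked after its values were seen. HAL, the histidine enzyme, was led by LBF replicate 2 with 1.32 FPKM, while the other LBF libraries had 0.123 and 0.186 and the HBF libraries 0.0092, 0.0426 and 0.048.

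Serine, folate and sulfur amino acid genes were lower for part of their members. Of 21 measured genes, 9 were lower and 1 was higher at an unadjusted p under 0.05, with a median of -0.69. PSAT1, the transaminase of serine synthesis on chromosome 1 from 231142673 to 231172364, had 240, 241 and 214 FPKM in LBF and 101, 115 and 91.4 in HBF, a difference of -1.18 (standard error 0.14, adjusted p = 0.140 from limma). ALDH1L1, which oxidizes formyl-folate in the cytosol and lies on chromosome 7 from 53748585 to 53794777, had 52.9, 41.8 and 72.6 FPKM in LBF and 8.08, 10.4 and 15.1 in HBF, a difference of -2.32 (standard error 0.28). Its mitochondrial relative ALDH1L2 overlapped between the groups, with 45.1, 28.1 and 25.4 FPKM in LBF and 19.8, 27.4 and 23.0 in HBF. CBS, which condenses homocysteine with serine, was at 11.3, 8.95 and 7.23 FPKM in LBF and 1.99, 1.18 and 3.48 in HBF, and GNMT, the glycine methyltransferase that uses up methyl groups, was at 1.69, 1.94 and 3.79 in LBF and 0.288, 0.577 and 0.349 in HBF. CTH, MTR and SHMT1 had differences of -1.10, -1.17 and -1.71. MAT2A, which makes the methyl donor S-adenosylmethionine, was the member counted as higher, at 92.6, 107 and 132 FPKM in LBF against 144, 166 and 145 in HBF. Its p was not under 0.05 with median-of-ratios scaling, with all 12 libraries in 1 fit, or without LBF replicate 1, LBF replicate 2, HBF replicate 2 or HBF replicate 3. Of the study's differing genes, 14 were grouped here under lysine, tyrosine, histidine, sulfur and folate metabolism, and all 14 were lower at an unadjusted p under 0.05 with a median of -1.21, and TST, a mitochondrial sulfurtransferase, had the smallest difference, -1.01.

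Genes of fatty acid and triglyceride synthesis were lower for part of their members. Of 21 measured members, 8 were lower and 0 higher at an unadjusted p under 0.05, with a median of -0.32. The median was -0.61 without LBF replicate 2 and -0.49 without HBF replicate 1. FASN, fatty acid synthase on chromosome 12 from 922405 to 937560, had 980, 333 and 581 FPKM in LBF and 65.1, 51.0 and 134 in HBF. The enzymes directly before it in the path did not share this difference. ACLY, which splits citrate to acetyl-CoA, was at 36.9, 19.0 and 47.9 FPKM in LBF and 62.8, 26.8 and 28.1 in HBF, and ACACA, acetyl-CoA carboxylase, at 24.3, 15.4 and 41.0 in LBF and 26.2, 18.9 and 18 in HBF, with a 95% interval of the difference from -1.08 to 0.55. The desaturase gene SCD spanned 446 to 3669 FPKM within LBF alone, so a difference in it was not detectable with these libraries.

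DGAT2, which adds the last fatty acid to triglyceride and lies on chromosome 9 from 10032163 to 10066082, had 214, 154 and 91.5 FPKM in LBF and 48.0, 29.7 and 85.2 in HBF, a difference of -1.54 (standard error 0.44). Its counterpart DGAT1 was at 13.7, 16.1 and 19.3 FPKM in LBF and 15.4, 14.1 and 11.99 in HBF and overlapped. The citrate carrier SLC25A1 had 46.8, 36.1 and 38.4 FPKM in LBF and 27.7, 21.1 and 21.5 in HBF, and ACSS2, which activates acetate, 64.2, 29.7 and 35.2 in LBF and 22.5, 21.9 and 26.7 in HBF. Of the genes that supply NADPH or pentose phosphates, TKT was at 380, 344 and 314 FPKM in LBF and 153, 181 and 209 in HBF, TALDO1 differed by -0.62 and ME1 by -1.04, whereas PGD, of the oxidative part of the pentose phosphate pathway, overlapped. Of the transcription factors that drive lipogenesis, MLXIPL, the carbohydrate sensor, was at 39.1, 48.8 and 62.0 FPKM in LBF and 38.5, 29.9 and 32.4 in HBF, while SREBF1 was at 29.6, 10.04 and 24.1 in LBF and 22.8, 18.8 and 19.3 in HBF and overlapped. LPL, the lipoprotein lipase that frees fatty acids for uptake, was at 1124, 977 and 842 FPKM in LBF and 368, 588 and 590 in HBF.

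Cholesterol synthesis had members in both directions. Of 19 measured genes 5 were lower and 2 higher at an unadjusted p under 0.05, and the median was 0.18, but 0.06 without LBF replicate 1, -0.06 without LBF replicate 2 and 0.01 without HBF replicate 2, and 0.08 and 0.05 under the scalings. The steps from mevalonate to lanosterol held 4 of the 5 lower genes, with MVK at -0.76, IDI1 at -0.60, FDFT1 (squalene synthase) at -0.82 and LSS (lanosterol synthase) at -0.93. The regulator SREBF2, among the higher genes, was at 9.58, 8.69 and 7.74 FPKM in LBF and 14.2, 13.9 and 13.2 in HBF. AACS, the other lower gene of this list, was at 41.7, 33.1 and 33.2 FPKM in LBF and 5.35, 9.75 and 8.52 in HBF, a difference of -2.21 (standard error 0.24, adjusted p = 0.128 from limma).

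In the citric acid cycle and pyruvate dehydrogenase 10 of 20 measured genes were lower and 0 higher at an unadjusted p under 0.05, and in the respiratory chain 9 of 18 were lower and 0 higher, with medians of -0.35 and -0.34. When single libraries were left out, these counts ranged from 7 to 10 and from 7 to 8. With all 12 libraries in 1 fit they were 5 and 4. IDH3B, a subunit of isocitrate dehydrogenase, was at 55.3, 62.7 and 54.3 FPKM in LBF and 33.8, 31.1 and 36.0 in HBF, a difference of -0.77 (standard error 0.12). CS, citrate synthase, was at 84.7, 79.0 and 63.0 FPKM in LBF and 44.3, 56.7 and 43.3 in HBF. The groups did not overlap for either gene.

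The subunits of a complex did not all share the difference. In isocitrate dehydrogenase IDH3A was at 16.5, 14.6 and 16.1 FPKM in LBF and 20.2, 15.7 and 15.2 in HBF beside the lower IDH3B and IDH3G. In succinate dehydrogenase SDHC was at 46.5, 26.2 and 28.8 FPKM in LBF and 17.4, 18.7 and 20.3 in HBF, while SDHD was at 150, 120 and 172 in LBF against 112, 129 and 121 in HBF. In complex III UQCRC1 was at 87.5, 76.8 and 80.7 FPKM in LBF and 46.8, 39.7 and 47.9 in HBF, a difference of -0.87 (standard error 0.13, adjusted p = 0.168 from limma), UQCRC2 differed by -0.75, and CYC1 overlapped at -0.11. The ATP synthase subunit ATP5F1C was at 141, 147 and 110 FPKM in LBF and 74.0, 64.1 and 83.5 in HBF, whereas ATP5PB differed by -0.19. NDUFV1 of complex I went from 84.7, 83.0 and 79.7 FPKM to 50.3, 39.7 and 58.2, and its neighbour in the complex, NDUFV2, from 48.0, 46.9 and 40.1 to 43.4, 44.3 and 43.2.

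Of 17 measured genes of mitochondrial fatty acid oxidation 6 were lower and 0 higher at an unadjusted p under 0.05, with a median of -0.31, and the count was 3 without LBF replicate 1, 1 without LBF replicate 3, 3 without HBF replicate 2 and 2 without HBF replicate 3. It was 0 with all 12 libraries in 1 fit and 3 without the variance trend. ACAA2, the thiolase that ends each round, was at 80.5, 88.6 and 79.2 FPKM in LBF and 62.7, 43.4 and 44.7 in HBF. CPT1A, which admits long-chain acyl groups to the mitochondrion, was at 14.3, 26.4 and 17.3 FPKM in LBF and 25.4, 23.8 and 22.1 in HBF. ACADM, the medium-chain dehydrogenase, was at 70.4, 49.3 and 66.5 FPKM in LBF and 60.7, 60.8 and 61.7 in HBF, with a 95% interval of the difference from -0.38 to 0.37. Of 10 genes behind the study's differing proteins grouped here under oxidation and the mitochondrion, 1 was lower at an unadjusted p under 0.05, and that was ACAA2. The count was 2 without LBF replicate 1 or LBF replicate 2 and under both scalings, and 0 with all 12 libraries in 1 fit. Of the rest, ACSL4 was at 7.70, 15.1 and 20.3 FPKM in LBF and 19.7, 21.1 and 16.7 in HBF, and ABCD3 at 19.1, 23.6 and 25.2 in LBF and 18.6, 19.3 and 17.9 in HBF, and both overlapped. ACOT13 differed by -0.11 and FDX1 by -0.22, also with overlap, and the cristae gene CHCHD6 by -0.15 without overlap.

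**Figure D4:**
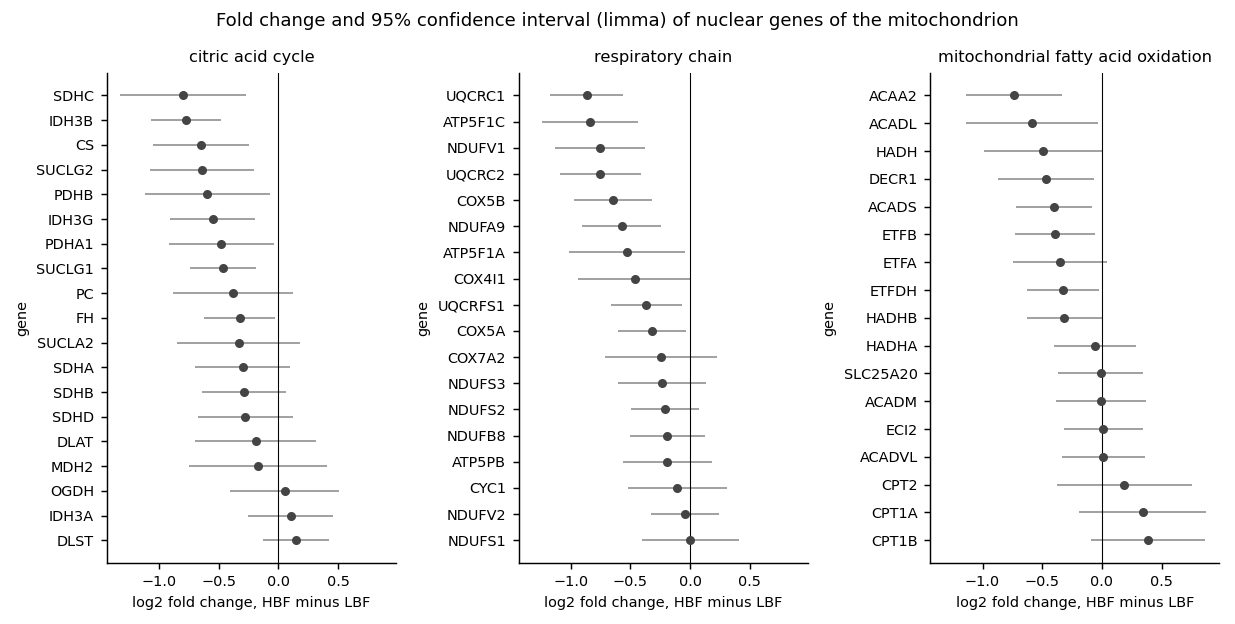
Log2 difference HBF minus LBF (points, horizontal axis) with its 95% confidence interval from limma (bars) for nuclear genes of the citric acid cycle with pyruvate dehydrogenase, the respiratory chain and mitochondrial fatty acid oxidation, n = 3 libraries per group. The intervals of UQCRC1 at -0.87, ATP5F1C at -0.84 and IDH3B at -0.77 lie wholly below 0, while those of ACADM, IDH3A and NDUFS1 include 0.

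Of 17 glycolytic and related genes 5 were lower and 0 higher at an unadjusted p under 0.05, with a median of -0.19, and the count was 2 to 4 when single libraries were left out (2 without LBF replicate 1 or HBF replicate 2, 3 without LBF replicate 3 or HBF replicate 3). It was 2 with all 12 libraries in 1 fit and 3 without the variance trend. The median was -0.06 without LBF replicate 2 or HBF replicate 3, -0.11 without LBF replicate 3 or HBF replicate 2, and -0.29 under both scalings. PFKFB1, an isoform of the enzyme that sets the level of fructose bisphosphate as a signal, lies on chromosome X from 47771751 to 47859079 and was at 8.32, 2.39 and 8.77 FPKM in LBF and 0.584, 0.346 and 0.78 in HBF. Its relative PFKFB3 was at 17.3, 36.3 and 29.7 FPKM in LBF and 31.4, 20.7 and 19.3 in HBF and overlapped. PFKFB1 is also expressed in muscle, at a mean of 30.3 FPKM in the muscle libraries, and the part of muscle RNA in its difference was not tested. FBP1, of gluconeogenesis, was at 5.35, 10.1 and 21.6 FPKM in LBF and 4.19, 3.93 and 3.22 in HBF. GAPDH, often taken as a reference gene, was at 1122, 1106 and 1168 FPKM in LBF and 793, 532 and 879 in HBF, so it lay lower in each HBF library, a difference of -0.66 (standard error 0.24). Hexokinase, aldolase, enolase and pyruvate kinase genes overlapped. ALDOA, the muscle aldolase, was at 52.2 FPKM in LBF replicate 3 and at 5.77 to 9.12 in the other libraries, and the part of muscle RNA in this was not tested. ADHFE1, a mitochondrial transhydrogenase among the study's differing genes, was at 49.7, 39.1 and 44.5 FPKM in LBF and 10.9, 10.5 and 18.9 in HBF. PRKAG3, an AMPK subunit of glycolytic muscle, was at 0.585, 0.0776 and 0.215 FPKM in LBF and 0.0285, 0.0526 and 0.0817 in HBF with overlap, and in muscle its mean was 25.2.

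Genes for storing and releasing fat mostly overlapped between the groups. Of 14 lipid droplet and lipolysis genes 0 had an unadjusted p under 0.05, against 13.6% of all genes. In each HBF library 3 of them lay higher, against 13.9% of all genes, and 1 after either scaling between libraries. The count higher at that p was 1 without LBF replicate 1, HBF replicate 2 or HBF replicate 3, 2 without LBF replicate 3 and 3 without LBF replicate 2. The perilipin of the adipocyte droplet, PLIN1, was at 511, 656 and 627 FPKM in LBF and 597, 873 and 568 in HBF, with a 95% interval from -0.38 to 0.70. LIPE, hormone-sensitive lipase, was at 503, 860 and 866 FPKM in LBF and 573, 899 and 607 in HBF, and PNPLA2, which starts lipolysis, at 352, 533 and 493 in LBF and 534, 651 and 447 in HBF. HILPDA, an inhibitor of PNPLA2, was at 15.0, 51.8 and 57.8 FPKM in LBF and 83.2, 62.1 and 91.4 in HBF. It was higher in each HBF library, but LBF replicate 1 stood well below the other LBF libraries.

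Among 12 adipocyte identity genes 1 was higher and 1 lower at an unadjusted p under 0.05, the median was -0.03 (-0.10 to 0.09 on leaving out single libraries), and the higher one was LEP. Leptin, the hormone that reports fat stores, had 98.5, 33.9 and 53.5 FPKM for its gene in LBF and 114, 109 and 106 in HBF, a difference of 0.96 (standard error 0.35) whose unadjusted p was under 0.05 without LBF replicate 1 but not without any other single library. LBF replicate 1 was close to the HBF libraries. The lower one was LPL, given above. The adipogenic regulator PPARG was at 121, 120 and 106 FPKM in LBF and 64.5, 124 and 127 in HBF, and CEBPA at 117, 76.4 and 150 in LBF and 144, 182 and 132 in HBF. Neither separated the groups. Of 17 insulin and AMPK signalling genes 1 was lower at an unadjusted p under 0.05. That was SIK2, a salt-inducible kinase abundant in adipocytes, with 62.5, 99.9 and 81.2 FPKM in LBF and 44.5, 61.7 and 42.8 in HBF. The count was 3 without LBF replicate 2 and 0 without HBF replicate 1 or 3. It was 2 under both scalings, without a filter on low values and with all 12 libraries in 1 fit. The insulin receptor gene INSR was at 5.70, 7.60 and 4.48 FPKM in LBF and 3.60, 5.94 and 5.98 in HBF, and IRS2, its substrate, at 19.2, 23.2 and 30.3 in LBF and 20.2, 28.9 and 22.1 in HBF. The intervals of their differences ran from -0.84 to 0.45 and from -0.52 to 0.48. Of other genes that the study lists as differing in muscle, PPARA was at 4.18, 2.23 and 4.40 FPKM in LBF and 1.49, 3.06 and 2.88 in HBF, GK at 8.42, 8.74 and 17.6 in LBF and 17.5, 9.13 and 11.5 in HBF, and BDH1 at 2.21, 1.78 and 1.83 in LBF and 1.17, 3.11 and 2.24 in HBF, all with overlap. PRKAG2, an AMPK subunit, differed by -0.34 without overlap.

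Small-molecule enzymes outside these pathways that are among the study's differing genes went in both directions. The 5 grouped here as oxidoreductases and detoxification genes were all lower at an unadjusted p under 0.05. CBR2, a carbonyl reductase, was at 4.14, 2.86 and 10.1 FPKM in LBF and 0.255, 0.683 and 1.25 in HBF, and EPHX1, the microsomal epoxide hydrolase, at 30.8, 38.3 and 32.6 in LBF and 12.6, 12.7 and 19.9 in HBF. HPGD, which inactivates prostaglandins, was at 6.53, 4.54 and 11.0 FPKM in LBF and 2.29, 1.25 and 2.62 in HBF. SULT2A1, a steroid sulfotransferase, differed by -1.60 and HSDL2 by -0.93. Another 5 enzyme genes, CHST1, CHST3, FADS3, ACSS1 and CTPS1, were all higher at an unadjusted p under 0.05. The desaturase family gene FADS3 was at 7.33, 6.92 and 4.83 FPKM in LBF and 17.6, 12.8 and 13.2 in HBF, the chondroitin sulfotransferase CHST3 at 4.20, 5.04 and 6.94 in LBF and 10.02, 16.4 and 10.3 in HBF, and CTPS1 of nucleotide synthesis at 1.04, 0.985 and 1.26 in LBF and 3.96, 2.12 and 3.22 in HBF. CHST1 differed by 1.77 and ACSS1, the mitochondrial acetate enzyme, by 1.29, opposite to ACSS2 and ACSS3.

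Of 9 transporter genes among the study's differing genes 3 were higher and 5 lower at an unadjusted p under 0.05. The mitochondrial uncoupling protein gene UCP2 was at 3.63, 7.60 and 4.02 FPKM in LBF and 16.7, 11.6 and 16.9 in HBF, a difference of 1.60 (standard error 0.30), and SLCO4A1, an organic anion transporter, at 0.345, 0.401 and 0.454 in LBF and 1.27, 1.43 and 1.36 in HBF. SLC7A5, which exchanges large neutral amino acids including leucine, was at 0.26, 0.396 and 0.584 FPKM in LBF and 1.43, 0.833 and 1.10 in HBF. The direction of this 1 gene, at most 1.43 FPKM in any library, was opposite to that of the breakdown genes above. SLC43A1 of the same group had their direction. SLC12A5, SLC22A16, ABCA8, SLC25A35 and SLC43A1 had differences of -1.80, -1.65, -1.46, -1.22 and -1.07, and SLC34A3 overlapped, with 0.136, 0.874 and 0.117 FPKM in LBF and 0.0516, 0.0317 and 0.12 in HBF.

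Genes of the actin cytoskeleton were higher in HBF. Of 18 measured members of a list of actins, actin-binding proteins and targets of SRF and YAP, the transcription regulators that respond to actin assembly and tension, 16 were higher at an unadjusted p under 0.05, which 9.36% of all genes were, and 0 were lower. The same 16 of 18 lay higher in each HBF library, against 13.9% of all genes, and the median difference was 0.70. The count stayed between 14 and 16 when single libraries were left out was 16 under both scalings between libraries and was 11 with all 12 libraries in 1 fit. ACTB, cytoplasmic beta-actin on chromosome 3 from 4084275 to 4090383, had 346, 451 and 424 FPKM in LBF and 1192, 1381 and 926 in HBF, a difference of 1.51 (standard error 0.22, adjusted p = 0.160 from limma). It is a common reference gene, and here it differed more than most genes.

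ACTG1, the other cytoplasmic actin, was at 426, 440 and 488 FPKM in LBF and 1110, 907 and 839 in HBF. Genes that cross-link or anchor filaments were higher too. FLNA was at 30.6, 27.5 and 38.7 FPKM in LBF and 59.8, 58.1 and 59.2 in HBF, a difference of 0.88, ACTN1 at 20.1, 24.0 and 17.4 in LBF and 50.4, 47.2 and 31.1 in HBF, and ACTN4, VCL, TLN1 and ZYX had differences of 0.71, 0.60, 0.54 and 0.68. The monomer binders CFL1 and PFN1 differed by 0.69 and 0.84, and the tropomyosins TPM1, TPM3 and TPM4 by 0.58, 0.48 and 0.52. SRF itself was at 4.35, 6.74 and 5.76 FPKM in LBF and 11.9, 9.81 and 8.32 in HBF. The matricellular genes CCN1 and CCN2, classical YAP targets, were at 19.0, 44.3 and 26.0 and at 38.6, 23.2 and 30.4 FPKM in the LBF libraries, and at 94.0, 73.5 and 73.3 and at 110, 93.0 and 60.6 in HBF. The exceptions were AMOTL2, at 21.0, 27.0 and 23.2 FPKM in LBF and 21.7, 36.2 and 33.7 in HBF, and ANKRD1, which was under 0.18 FPKM in every library.

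Of the 12 measured smooth muscle and pericyte genes 3 were higher and 0 lower at an unadjusted p under 0.05, namely TAGLN, MYL9 and MCAM, an adhesion molecule of vessel walls. TAGLN was at 71.7, 92.7 and 85.8 FPKM in LBF and 219, 280 and 139 in HBF, and MYL9 at 57.3, 52.8 and 36.6 in LBF and 114, 137 and 77.2 in HBF. MYH11, the smooth muscle myosin, was at 16.2, 2.55 and 4.66 FPKM in LBF and 4.68, 8.38 and 5.33 in HBF, and CNN1 at 12.9, 1.59 and 5.04 in LBF and 2.58, 5.10 and 7.34 in HBF. ACTA2, smooth muscle actin, was at 61.0, 68.9 and 58.2 FPKM in LBF and 45.5, 102 and 95.4 in HBF, so these 3 overlapped. Of the study's differing genes grouped here under actin and growth, CCND1, the cyclin that starts the cell cycle, was at 3.35, 4.04 and 7.13 FPKM in LBF and 13.3, 9.98 and 14.2 in HBF, PHLDA2 differed by 1.63, and the cell cycle inhibitor CDKN1C by -1.05. Among the genes of its actin proteins FHL2 differed by 0.65 without overlap and AKAP12 overlapped, with 20.5, 9.70 and 10.6 FPKM in LBF and 11.3, 19.1 and 18.6 in HBF.

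**Figure D5:**
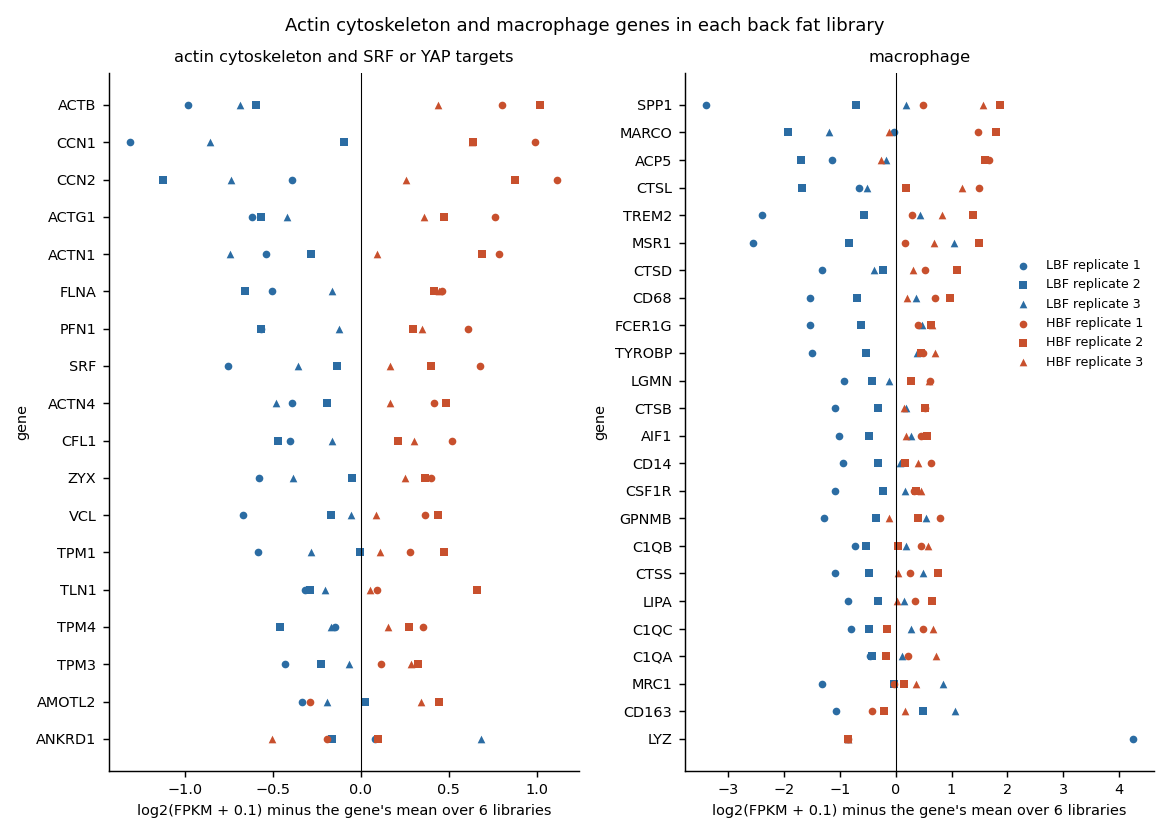
Log2(FPKM + 0.1) of each library minus the mean of the gene over the 6 back fat libraries (horizontal axis) for actin and SRF or YAP target genes (left) and macrophage genes (right), LBF in blue, HBF in orange and replicate numbers by marker shape. In the left panel the groups separate for 16 of 18 genes, and in the right panel for 7 of 24, with LBF replicate 1 often lowest and LBF replicate 3 often inside the HBF range.

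Most macrophage genes were higher in HBF, and the LBF libraries were spread widely. Of 24 measured macrophage and lysosome genes 16 were higher at an unadjusted p under 0.05 and 0 were lower, with a median of 0.80, but only 7 lay higher in each HBF library. SPP1, osteopontin of lipid-associated macrophages on chromosome 8 from 131077786 to 131085334, had 6.94, 45.0 and 83.4 FPKM in LBF and 104, 270 and 217 in HBF, a difference of 2.61 (standard error 0.87). CTSL, a lysosomal protease, was at 13.7, 6.65 and 15.0 FPKM in LBF and 60.4, 24.5 and 49.0 in HBF, a difference of 1.90 (standard error 0.42, adjusted p = 0.227 from limma), and CTSD at 202, 432 and 386 in LBF and 727, 1079 and 622 in HBF. These 3 separated the groups.

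For CD68, TREM2 and ACP5 LBF replicate 3 reached the HBF range. CD68, a lysosomal marker of macrophages, was at 6.43, 11.6 and 24.3 FPKM in LBF and 31.0, 37.0 and 21.9 in HBF. TREM2, a lipid receptor of macrophages in fat, was at 0.434, 1.79 and 3.71 FPKM in LBF and 3.34, 7.26 and 4.88 in HBF. ACP5, the tartrate-resistant phosphatase, was at 1.88, 1.25 and 3.79 FPKM in LBF and 13.9, 13.1 and 3.56 in HBF, and MARCO, a scavenger receptor, was at 0.276 and 0.0665 in LBF, listed at 0 in LBF replicate 2, and at 0.966, 1.23 and 0.253 in HBF, so that LBF replicate 1 reached the HBF range. LYZ, lysozyme, was at 3.33 FPKM in LBF replicate 1 and listed at 0 in the other 5 libraries. The markers of tissue-resident macrophages overlapped, with CD163 at 9.36, 28.0 and 41.7 FPKM in LBF and 14.7, 17.1 and 22.2 in HBF and MRC1 at 3.04, 7.56 and 14.0 in LBF and 7.55, 8.55 and 9.94 in HBF. The count of 16 was 8 without LBF replicate 1, 7 without LBF replicate 2, 5 without HBF replicate 1, 8 without HBF replicate 2 and 10 without HBF replicate 3, and was 21 without LBF replicate 3. The median ranged from 0.52 without LBF replicate 1 to 1.15 over these, and the count was 10 after median-of-ratios scaling, 11 after quantile normalization, 10 without a filter on low values and 9 without the variance trend.

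Of the study's differing genes, 10 were grouped here under macrophages and leukocytes, and since they were chosen on these libraries, their count of 10 higher at an unadjusted p under 0.05 is a description. IL27RA, a cytokine receptor, was at 1.28, 1.04 and 2.75 FPKM in LBF and 12.9, 3.84 and 7.51 in HBF, and CYBA, of the phagocyte oxidase, at 19.2, 20.5 and 39.9 in LBF and 62.1, 60.4 and 47.6 in HBF. BID, a regulator of cell death, was at 17.8, 30.5 and 19.2 FPKM in LBF and 63.9, 97.6 and 55.7 in HBF, and UBD, a ubiquitin-like protein induced by cytokines, at 6.63, 9.90 and 10.2 in LBF and 21.7, 21.8 and 19.2 in HBF. PVR, ULBP1 and TNFAIP8L1 had differences of 1.70, 1.39 and 1.28. Of 10 genes so grouped from its differing proteins 4 were higher at an unadjusted p under 0.05. LGMN, a lysosomal protease, was at 109, 155 and 190 FPKM in LBF and 316, 250 and 315 in HBF, CSF1R, the receptor macrophages depend on, at 10.6, 19.2 and 25.3 in LBF and 28.3, 28.9 and 31.0 in HBF, and GMFG at 14.2, 42.4 and 98.5 in LBF and 115 in each HBF library. CTSB was at 269, 456 and 649 FPKM in LBF and 818, 819 and 629 in HBF, with overlap. The count was 1 without LBF replicate 2 or HBF replicate 2 and 2 without HBF replicate 1 or 3, 2 with median-of-ratios scaling or without a filter on low values and 1 without the variance trend. LCP1, a leukocyte actin bundler, was at 4.87, 12.4 and 42.6 FPKM in LBF and 24.9, 43.1 and 38.6 in HBF, CORO1A at 2.67, 3.90 and 5.99 in LBF and 4.57, 6.11 and 10.7 in HBF, PSAP at 441, 458 and 492 in LBF and 593, 551 and 439 in HBF, and CYBC1 at 16.2, 17.8 and 19.5 in LBF and 21.9, 15.5 and 18.4 in HBF. The complement gene C3, at 13.3, 4.43 and 7.10 FPKM in LBF and 8.74, 15.2 and 6.92 in HBF, and APOE, at 704, 643 and 596 in LBF and 929, 792 and 696 in HBF, overlapped too.

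Of 13 cytokine and chemokine genes 7 were higher and 0 lower at an unadjusted p under 0.05, with a median of 0.97, and without HBF replicate 1 the count was 4. CCL2, which draws monocytes into fat, was at 10.05, 21.4 and 34.2 FPKM in LBF and 61.6, 57.1 and 57.6 in HBF, a difference of 1.59 (standard error 0.40). CCL4 was at 1.75, 1.77 and 1.72 FPKM in LBF and 10.3, 5.02 and 4.45 in HBF, CCL5 at 5.54, 5.93 and 7.92 in LBF and 11.9, 10.4 and 16.2 in HBF, and TGFB1, the fibrogenic growth factor, at 7.06, 13.4 and 11.4 in LBF and 27.0, 20.9 and 20.0 in HBF. IL6 was led by a single library, HBF replicate 1 at 13.2 FPKM against 1.69 to 5.03 elsewhere. CD3E, a lymphocyte gene, was between 0.495 and 2.32 FPKM. Of 14 lymphocyte genes 0 separated the groups, and 1 was higher at an unadjusted p under 0.05, against 9.36% of all genes. That member, the cytotoxic granule gene NKG7, was at 3.47, 9.03 and 21.7 FPKM in LBF and 21.3, 31.6 and 25.9 in HBF, and the count was 2 without LBF replicate 3 and 0 without any other single library.

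Immediate early genes, which respond within minutes to stress, handling or growth factors, varied with the library. Of 13 genes 5 were higher at an unadjusted p under 0.05, with a median of 0.79, but the count was 0 without HBF replicate 1, 1 without LBF replicate 1 and 3 without HBF replicate 3. It was 1 with all 12 libraries in 1 fit and 3 without a filter on low values. The median was 0.52 without HBF replicate 1. FOS was at 83.2, 137 and 132 FPKM in LBF and 376, 134 and 192 in HBF, and FOSB at 10.3, 29.5 and 32.8 in LBF against 121, 31.9 and 28.9 in HBF, so HBF replicate 1 was highest for both, and the groups overlapped. KLF2 and ADAMTS1, described next, also had their highest value in HBF replicate 1. The part of this early response in their differences was not tested.

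Endothelial and sprouting genes were higher for part of their members. Of 13 general endothelial markers 4 were higher and 0 lower at an unadjusted p under 0.05, with a median of 0.69. The count was 10 without LBF replicate 2, 0 without LBF replicate 3 or HBF replicate 1, and 1 without HBF replicate 2. It was 1 with median-of-ratios scaling or without the variance trend and 2 with quantile normalization or without a filter on low values. The median was 0.41 without LBF replicate 3. PECAM1 was at 147, 203 and 106 FPKM in LBF and 299, 203 and 186 in HBF, a difference of 0.62 with a 95% interval from -0.05 to 1.29. Of 19 angiogenic ligands and tip cell genes 5 were higher and 1 lower, with a median of 0.57, and without LBF replicate 2 the number of higher genes was 10. ESM1, a secreted marker of endothelial tip cells on chromosome 16 from 34184255 to 34193877, had 0.219, 0.116 and 0.161 FPKM in LBF and 0.847, 1.53 and 0.989 in HBF, a difference of 2.18 (standard error 0.31, adjusted p = 0.160 from limma). APLN, the peptide apelin that tip cells secrete, was at 1.91, 1.06 and 0.79 FPKM in LBF and 3.65, 3.83 and 5.91 in HBF, while its receptor APLNR overlapped, at 10.6, 3.35 and 2.79 in LBF and 7.32, 3.28 and 4.08 in HBF.

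DLL4, the Notch ligand of sprouts, was at 5.64, 8.93 and 3.95 FPKM in LBF and 21.1, 21.3 and 12.4 in HBF. The growth factor VEGFA itself was not higher, at 17.2, 27.2 and 22.5 FPKM in LBF and 10.04, 23.5 and 19.4 in HBF, and VEGFD, which acts on lymphatic vessels, differed by -1.15. The hypoxia response list, which includes VEGFA, had a median of -0.09 (-0.25 to 0.17 on leaving out single libraries). Of its 9 members 1 was higher at an unadjusted p under 0.05, against 9.36% of all genes, and 2 without LBF replicate 2. Of 12 of the study's differing genes grouped here as endothelial or angiogenic, 9 were higher and 3 lower. GJA5, an arterial gap junction gene, was at 6.80, 6.84 and 10.2 FPKM in LBF and 29.0, 26.0 and 13.4 in HBF, GPR4, an acid-sensing receptor, at 2.42, 6.31 and 2.95 in LBF and 11.5, 12.6 and 9.27 in HBF, and ADAMTS1, a matrix protease, at 7.80, 11.7 and 13.2 in LBF and 51.7, 26.8 and 22.2 in HBF. SELP, the platelet and venule selectin, differed by 1.29, KLF2, which responds to flow, by 1.42, and ANGPTL1 and DLL3 by -1.07 and -1.03.

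Fibrillar collagens and fibroblast genes had 1 of 17 lower at an unadjusted p under 0.05 and 6 of 17 without LBF replicate 2. Their median was -0.13, but -0.56 without LBF replicate 2, -0.29 without HBF replicate 1, -0.25 without HBF replicate 3, -0.02 without LBF replicate 3, 0.01 without LBF replicate 1 and 0.12 without HBF replicate 2, so it had no stable sign. COL1A1, of type I collagen, was at 1413, 394 and 961 FPKM in LBF and 525, 318 and 791 in HBF, so LBF replicate 2 lay among the HBF libraries, as it did for COL3A1 at 3543, 1076 and 2883 in LBF and 1152, 736 and 1598 in HBF. POSTN, periostin, was the lower member, at 192, 146 and 271 FPKM in LBF against 60.5, 80.2 and 134 in HBF. Of 18 of its differing genes grouped here as matrix and secreted factors, 6 were higher and 11 lower. PRG4, lubricin of serosal and joint surfaces, was at 2.94, 0.921 and 1.03 FPKM in LBF and 38.2, 10.3 and 19.6 in HBF, MEGF6 at 0.442, 0.191 and 0.0401 in LBF and 1.72, 1.23 and 1.11 in HBF, and INHBB, a subunit of activin B made by adipocytes, at 0.703, 2.37 and 2.15 in LBF and 6.46, 9.10 and 4.95 in HBF.

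The lower matrix genes included 2 glypicans and a basement membrane collagen. GPC6 was at 11.0, 4.17 and 5.48 FPKM in LBF and 0.967, 2.56 and 2.93 in HBF, COL4A5 at 4.94, 2.49 and 2.75 in LBF and 0.775, 0.50 and 1.31 in HBF, and ISLR, a fibroblast protein, at 85.0, 42.6 and 62.2 in LBF and 14.4, 12.2 and 29.6 in HBF. MGP, the inhibitor of calcification, was at 651, 258 and 432 FPKM in LBF and 179, 138 and 191 in HBF, and IGFBP5, a binding protein of insulin-like growth factors, at 129, 57.3 and 35.5 in LBF and 23.9, 10.8 and 28.9 in HBF. PI15, FNDC1, ADAMTSL1, ADAMTSL3 and ADAMTS20 had differences between -1.51 and -1.05. COL19A1 was low, at most 0.268 FPKM, and higher without overlap. Of the genes behind matrix proteins FBLN1 was at 86.3, 21.2 and 53.4 FPKM in LBF and 68.0, 49.0 and 59.98 in HBF, MFAP5 at 190, 44.3 and 141 in LBF and 87.9, 38.7 and 84.9 in HBF, and ITIH1 at 1.92, 12.03 and 6.30 in LBF and 9.72, 1.54 and 3.47 in HBF, all with overlap.

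Of 13 genes for chaperones and stress proteins of the endoplasmic reticulum 8 were higher and 0 lower at an unadjusted p under 0.05, 10 lay higher in each HBF library, and the median was 0.52. SDF2L1 was at 3.32, 2.18 and 3.75 FPKM in LBF and 7.13, 5.06 and 6.72 in HBF, HYOU1 at 8.07, 9.14 and 11.6 in LBF and 15.4, 13.9 and 16.1 in HBF, and MANF at 34.5, 30.0 and 45.3 in LBF and 64.9, 53.7 and 57.0 in HBF. HSPA5, the main chaperone, overlapped, with LBF replicate 3 at 96.7 FPKM against 90.4 to 94.5 in HBF. The count was 4 without LBF replicate 1, LBF replicate 2 or HBF replicate 1 and 5 without HBF replicate 2, and 4 to 6 under the scalings. DDIT3, a transcription factor of the stress response counted here, was at 10.8, 9.15 and 21.2 FPKM in LBF and 31.5, 32.2 and 23.6 in HBF, while of 10 genes of the response to lack of amino acids 2 were higher and 1 lower, with a median of -0.03 (-0.14 to 0.13 on leaving out single libraries), and 1 was higher without LBF replicate 1, LBF replicate 3, HBF replicate 1 or HBF replicate 3. ASNS, asparagine synthetase of that response, was at 8.84, 5.50 and 5.18 FPKM in LBF and 5.12, 6.03 and 4.98 in HBF.

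Cell cycle genes were low in all libraries and mostly highest in HBF replicate 3. Of 13, 5 were higher at an unadjusted p under 0.05, with a median of 0.93, and the count was 1 without LBF replicate 1, LBF replicate 2 or HBF replicate 3, 3 without HBF replicate 1 and 8 without LBF replicate 3. The median was 0.47 without HBF replicate 3 and 0.48 with a pseudocount of 1. TOP2A was at 0.362, 0.395 and 1.35 FPKM in LBF and 0.952, 0.77 and 2.49 in HBF. The replication genes MCM3 and MCM5 were at 0.614, 0.779 and 1.14 and at 1.15, 1.17 and 1.85 FPKM in the LBF libraries, and at 1.49, 1.21 and 3.08 and at 2.33, 1.94 and 4.22 in HBF. Ribosomal protein genes, as a comparison group of housekeeping function, had 1 of 45 higher at an unadjusted p under 0.05, RPL7L1, and a median of -0.05 (-0.11 to 0.01 on leaving out single libraries). The count was 0 without LBF replicate 1, LBF replicate 2 or HBF replicate 1. With median-of-ratios scaling the median was -0.14, and 13 rather than 3 of the 45 lay lower in each HBF library. Of all 16239 genes 1573 did so under that scaling. Of 10 complement and apolipoprotein genes 1 was higher at an unadjusted p under 0.05, against 9.36% of all genes. It was 0 of them without LBF replicate 1, HBF replicate 1 or HBF replicate 2.

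Of 9 transcription factors and receptors among the study's differing genes 7 were lower and 2 higher. PPARD, a nuclear receptor for fatty acids, was at 10.1, 11.6 and 11.3 FPKM in LBF and 33.4, 37.1 and 17.3 in HBF, and NR5A2 at 0.231, 0.169 and 0.187 in LBF and 0.494, 0.48 and 0.556 in HBF. HOXA9 and HOXA10, which mark position along the body axis, were at 20.2, 18.2 and 27.0 and at 4.77, 3.77 and 10.7 FPKM in LBF and 6.21, 3.10 and 11.6 and at 1.22, 0.502 and 2.64 in HBF. GFRA1, a receptor of the neurotrophic factor GDNF, was at 1.12, 2.04 and 3.67 FPKM in LBF and 0.214, 0.244 and 0.677 in HBF. LHCGR, the receptor of luteinizing hormone, was at 1.53, 0.793 and 0.168 FPKM in LBF, at 0.0999 in HBF replicate 1 and listed at 0 in the other HBF libraries. PLAG1 and HLF had differences of -1.39 and -1.08. The 3 of its differing genes grouped here as epithelial, KRT80, DUOXA2 and LY6G6C, were higher from a low level, and HBF replicate 1 was far above the others for the latter pair. DUOXA2 was at 0.203, 0.268 and 0.308 FPKM in LBF and 4.43, 0.624 and 0.528 in HBF, and LY6G6C at 0.0571 and 0.225 in LBF, listed at 0 in LBF replicate 3, and 4.19, 0.832 and 0.233 in HBF. The count at an unadjusted p under 0.05 was 3, but 1 without LBF replicate 1 or 3. It was also 1 with a pseudocount of 1, and 2 without a filter on low values. KRT14, the keratin of basal skin cells, was at 0.701, 0.27 and 0.415 FPKM in LBF and 0.305, 0.883 and 0.715 in HBF, and all 4 genes of the keratinocyte list that holds it overlapped.

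Skeletal muscle genes stood out in LBF replicate 3. ACTA1, skeletal actin, was at 0.0974, 0.441 and 107 FPKM in LBF and 0.0306, 0.682 and 0.481 in HBF, and CKM, muscle creatine kinase, at 0.315, 0.392 and 47.7 in LBF and 0.207, 0.569 and 0.632 in HBF. Over 13 such genes the median was -2.01 and -0.04 without LBF replicate 3. Of muscle genes among those the study lists as differing in fat or in muscle, CASQ1 was at 0.534, 0.12 and 3.11 FPKM in LBF and 0.0421, 0.113 and 0.0938 in HBF, LMOD2 at 0.075, 0.0963 and 2.38 in LBF and 0.0113, 0.0801 and 0.0388 in HBF, and PPP1R27 at 0.0486, 0.144 and 2.23 in LBF and 0.231, 0.0446 and 0.0492 in HBF. CACNG1, KLHL34 and ABRA were under 0.4 FPKM in every library and overlapped, ABRA being listed at 0 in LBF replicate 2 and HBF replicate 1. FBXO32, a ubiquitin ligase that is not restricted to muscle, was at 9.53, 10.2 and 8.003 FPKM in LBF and 4.52, 9.15 and 4.93 in HBF.

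For further genes of this kind the groups did not overlap. CORO6, a coronin, was at 5.25, 7.63 and 7.84 FPKM in LBF and 3.69, 2.56 and 3.71 in HBF. ACTN2 was at 0.856, 1.49 and 3.48 FPKM in LBF and 0.265, 0.529 and 0.525 in HBF, TXLNB at 0.38, 0.547 and 0.673 in LBF and 0.121, 0.0899 and 0.157 in HBF, and SMTNL2 and ANKRD2 had differences of -1.37 and -0.67. LBF replicates 1 and 2, in which ACTA1 was under 0.5 FPKM, lay above all HBF libraries for each of these 5 genes, and LBF replicate 3 was the highest library for each. The part of muscle RNA in their differences was not tested. Without LBF replicate 3, 20 of 25 members of the branched-chain list were lower at an unadjusted p under 0.05 and their median was -0.85.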

How the data were processed

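Total RNA of back subcutaneous fat was sequenced by the authors, who used HISAT2 for alignment against the pig genome Sscrofa11.1 and Cufflinks 2.2.1 for FPKM. The deposited table gives FPKM per Ensembl gene for all 12 libraries, and no read counts are used here. The authors tested counts with DESeq2 1.25.9. Since the values are FPKM, a linear model per gene was fitted in R 4.3.3 by limma 3.58.1 (eBayes with a mean trend after lmFit, Benjamini-Hochberg adjustment) on log2(FPKM + 0.1) over the 6 back fat libraries, for genes with a mean above 0.05 FPKM. The 7 identifiers on 2 rows were summed. A call needed a log2 difference of 1 or more in either direction beside an adjusted p under 0.01. The fit was also run on simulated data, and the outcome of that run is not given here.

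Depth is unknown because the table holds no counts. From the smallest steps of low values, depth relative to LBF replicate 1 was estimated at 0.95 to 1.39. FPKM summed to 420982 to 514247 per library. With 3 libraries against 3, an exact two-sided permutation test of a single gene cannot go below p = 0.10, so none was used. P-values measure the spread between these samples.

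Names come from a reference table of gene names, which named 15027 of 31903 identifiers, and 27 more were named from the study's supplementary tables. Positions come from the RefSeq table of Sscrofa11.1, matched by name. Genes were named as members of fixed lists, with all libraries for up to 5 members of largest difference per list and for members that overlap or are listed at 0, beside the 10 named genes with the smallest p, the study's fat RT-qPCR genes and up to 2 unnamed identifiers per direction. The members and lists were chosen with earlier results of these data known, and the study's differing genes, grouped here by function, were chosen on these same libraries. Alternatives were other pseudocounts, filters, scalings, a replicate block, all 12 libraries in 1 fit and leaving out each library. Some members of the lists are counted but not reported by name here.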

Additional observations from a re-analysis of the deposited data

How the results depend on the processing

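No gene past the limits was found under the pseudocounts of 1 and 0.01, without a filter, with a mean above 1 FPKM, with either scaling, without the trend, with the replicate block, with all 12 libraries in 1 fit or at adjusted p under 0.05. Leaving out single libraries gave 0 to 2 such genes, and an adjusted p under 0.25 alone gave 399. Genes at an unadjusted p under 0.05 numbered 2206, and 1433 to 2340 on leaving out single libraries, lowest without HBF replicate 1. The share of them higher in HBF was 68.9%, and 66.1% without a filter, 72.5% above 1 FPKM, 66.9% without the trend, 49.0% with median-of-ratios scaling, 47.2% with quantile normalization and 62.7% to 72.2% on leaving out single libraries. Genes whose groups did not overlap numbered 3308, and 4505 to 5556 on leaving out single libraries, where fewer samples have to separate. The labels give LBF and HBF the same replicate numbers. Deviations of same-numbered libraries correlated at 0.07, 0.13 and 0.01, and those of the other pairs at -0.18 to 0.12. With 3 libraries per group these values cannot tell whether same-numbered libraries share more than a number. With the replicate block 2265 genes were at an unadjusted p under 0.05, 68.7% of them higher.

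With median-of-ratios scaling the sign changed for BCKDK (-0.03), BDH1 (-0.03), CYBC1 (-0.04), MYH11 (-0.06), SREBF1 (-0.03). With quantile normalization the sign changed for BCKDK (-0.01), BDH1 (-0.05), CYBC1 (-0.04), FABP4 (-0.06), MYH11 (-0.09), SREBF1 (-0.02). With a pseudocount of 1 the sign changed for HPD (-0.01), MYH11 (-0.01). The sign also changed on leaving out single libraries for genes whose groups overlapped, and the lowest and highest differences over these fits were ACACA (-0.61 to 0.09), ACADM (-0.16 to 0.09), ACLY (-0.24 to 0.45), ACTA1 (-4.29 to 0.26), ADIPOQ (-0.60 to 0.12), APLNR (-0.37 to 0.58), ASNS (-0.37 to 0.01), BCKDK (-0.05 to 0.13), BDH1 (-0.24 to 0.43), CD163 (-0.94 to 0.13), CD3E (-0.21 to 0.58), CKM (-3.19 to 0.24), CNN1 (-0.80 to 0.67), CYBC1 (-0.07 to 0.17), CYC1 (-0.25 to 0.01), FBLN1 (-0.21 to 0.80), GK (-0.09 to 0.51), HBQ1 (-0.34 to 0.07), HOXC9 (-0.06 to 0.03), HPD (-0.76 to 0.99), IDH3A (-0.03 to 0.18), INSR (-0.38 to 0.04), IRS2 (-0.18 to 0.15), ITIH1 (-1.19 to 0.13), KLHL34 (-0.05 to 0.80), LIPE (-0.35 to 0.05), MRC1 (-0.25 to 0.83), MYH11 (-0.55 to 0.77), ND4L (-0.43 to 0.05), NDUFV2 (-0.12 to 0.01), PFKFB3 (-0.50 to 0.03), PLIN1 (-0.03 to 0.28), PPARG (-0.36 to 0.12), PPP1R27 (-1.97 to 0.02), SCD (-1.47 to 0.05), SREBF1 (-0.40 to 0.38). The cause was not tested. Gene lists counted under the same alternatives, chosen after seeing the data, are given in the report with the libraries that move them. Of the smaller lists, both scalings gave 0 higher complement and apolipoprotein genes and 0 higher ribosomal protein genes, and 2 and 3 lower fibroblast genes. Without the trend 4 chaperone genes were higher. With all 12 libraries in 1 fit 2 of the 4 branched-chain genes from the study's protein list were lower, and 0 fibroblast genes. FPKM carry no read counts, so the depth behind a low value is unknown.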

Other observations

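Further gene groups, chosen after their values were seen, are given as values. Of 4 genes of red blood cells held in the tissue 2 were lower at an unadjusted p under 0.05, and 1 without LBF replicate 3 and 0 with all 12 libraries in 1 fit. Those were HBB, a haemoglobin chain, at 250, 373 and 619 FPKM in LBF and 190, 48.5 and 169 in HBF, and ALAS2, the first enzyme of haem synthesis in these cells, at 1.33, 1.84 and 2.11 in LBF and 0.882, 0.341 and 0.96 in HBF. HBM and HBQ1, further globin genes, had differences of -1.09 and -0.12 with overlap. Of 29 peroxisome genes 6 were lower and 0 higher at an unadjusted p under 0.05, with a median of -0.16 (-0.26 without HBF replicate 2), and the count was 2 without LBF replicate 2 or HBF replicate 3 and 3 without HBF replicate 1, 2 with all 12 libraries in 1 fit and 3 without the variance trend. Beside PXMP2, the import genes PEX3, PEX5 and PEX26 had differences of -0.61, -0.38 and -0.31, and EHHADH, a peroxisomal oxidation enzyme, -0.72.

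Among 27 HOX genes, which mark position along the body axis, 3 were higher and 3 lower at an unadjusted p under 0.05. Of all genes 9.36% were higher and 4.22% lower at that p. With all 12 libraries in 1 fit, 1 HOX gene was higher and 0 were lower. HOXA9 and HOXA10 were lower as given above and HOXD10 differed by -1.37 with overlap, while HOXB2 was at 2.69, 2.50 and 3.03 FPKM in LBF and 3.72, 5.25 and 4.50 in HBF and HOXD4 at 2.01, 2.64 and 3.33 in LBF and 5.07, 3.46 and 4.596 in HBF. HOXC9, a neighbour in position along the axis, was at 6.35, 6.08 and 6.13 FPKM in LBF and 6.59, 5.80 and 6.01 in HBF. HOXC10 was at 1.95, 1.30 and 1.49 FPKM in LBF and 0.231, 0.248 and 1.64 in HBF, a difference of -1.50 with overlap.

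Of the genes of the mitochondrial genome, ATP6 and COX3 were listed at 0 in LBF replicates 2 and 3 and at 21500 FPKM or more in every other library, so no difference is given for them. ND5 was at 1588, 1945 and 1377 FPKM in LBF and 2683, 4135 and 3413 in HBF, and ND6, which is encoded on the other strand, at 778, 1357 and 2251 in LBF and 3497, 4176 and 3325 in HBF. ND1, ND2, ND3, ND4, ND4L, CYTB, COX1 and COX2 overlapped, with differences between -0.46 and -0.19. ATP8 was listed at 0 in 4 libraries.

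Of the identifiers without a name and with a mean above 1 FPKM, ENSSSCG00000040361 was at 81.0, 24.2 and 90.3 FPKM in LBF and 2.39, 6.01 and 0.0127 in HBF, and ENSSSCG00000036511 at 0.114, 0.185 and 0.0378 in LBF and 2.29, 0.45 and 78.0 in HBF.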
